A study of Rattus norvegicus with 16 samples.

Results

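The non-collagen extracellular matrix genes described here were taken by symbol from a list of 35: 14 adhesive and matricellular genes, 13 genes of elastic fibres and microfibrils, and 8 proteoglycan genes. They occupied 36 of the 32754 gene entries in each library, because osteoglycin (Ogn) was listed under its symbol at 2 entries, and all 36 were among the 13458 entries with enough counts to test. Samples of 10 mg had been taken from the right ventricle of female rats of the Sprague Dawley strain, aged 20 to 21 weeks, and their mRNA was sequenced. The groups were KO PAB, KO SHAM, WT PAB and WT SHAM, with 4 libraries each and 16 in all. KO stands for the genotype ERalpha -/-, WT for wild type, PAB for 10 weeks of pulmonary artery banding, which narrows the vessel that the right ventricle pumps into, and SHAM for the control operation. The labels neither describe the ERalpha mutation nor say whether each replicate is its own animal. The p-values therefore reflect only the spread among the sequenced samples, which may in part be technical. Each sample was tissue of several cell types. In such a sample, fewer cells of a type and less RNA per cell cannot be told apart.

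The matrix between cardiac cells holds more than collagen. Matricellular proteins such as periostin, tenascin-C and the thrombospondins are secreted by fibroblasts and other cells, bind matrix and cell surface receptors, and are known for their appearance in injured or mechanically loaded hearts. Elastic fibres consist of cross-linked elastin on a scaffold of fibrillin microfibrils, with fibulins as assembly factors. The latent TGF-beta binding proteins (LTBPs) are associated with microfibrils, and some of them, but not all, carry latent growth factor. Small leucine-rich proteoglycans such as decorin and biglycan coat collagen fibrils and control their diameter.

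Library totals ran from 22168110 to 34718633 counts. Levels are given as CPM (counts scaled to a common TMM-adjusted library total), which makes libraries comparable for 1 gene but does not correct for gene length, so different genes are not compared by level. Esr1, the gene of ERalpha, had 7 to 21 counts in KO libraries and 70 to 139 in WT libraries, so each library matched its genotype label. Adipoq, which encodes the adipocyte hormone adiponectin, stood at 13.2 CPM of the unscaled total in KO SHAM 4, 56.5 in WT SHAM 2 and 31.0 in WT SHAM 3. It was at or below 0.0451 in the other 5 sham libraries. These 3 sham libraries were included in the first fit and left out of the second. KO PAB 3 stood at 5.51 CPM, above the same limit of 5, while the other 7 banded libraries had at most 0.374.

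The sham libraries were not alike. For 31 of the 36 entries, each of the 3 sham libraries high in Adipoq exceeded every one of the other 5. Elastin (Eln) had a mean of 256 CPM in these 3 libraries, against 20.5 CPM in the other 5. Biglycan (Bgn) had means of 806 CPM in the 3 and 91.2 CPM in the other 5. For latent TGF-beta binding protein 2 (Ltbp2), a microfibril-associated LTBP, the means were 54.7 CPM in the 3, against 1.98 CPM in the other 5. The adhesive genes did likewise, with osteopontin (Spp1) at 56.6 CPM in the 3 and 5.07 CPM in the other 5. The median difference over the 36 entries was 1.53 on the log2(CPM + 1) scale, with a range of -0.82 to 4.00 and 34 positive values. Thbs1, Cthrc1, Cyr61, the second Ogn entry and Omd were the 5 entries without that complete separation. WT SHAM 2 was the highest of all 16 libraries for 28 entries and KO SHAM 4 for 5.

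Markers of several cell types moved with these libraries. Plin1, the lipid droplet protein of adipocytes, was at 2.80 to 11.2 CPM in the 3 libraries and at 0 in the other 5. The summed level of the whole list of 10 adipocyte markers was lower in the 3, at 2108 to 2813 CPM, than in the other 5, at 3088 to 3641 CPM. Most of that sum came from the lipoprotein lipase gene Lpl, at 1763 to 2379 CPM in the 3 and 2759 to 3303 CPM in the other 5. Msln, a mesothelial surface protein, was at 20.5 to 43.9 CPM in the 3 and at 0.164 to 7.90 CPM in the other 5, and 10 mesothelial markers summed to 60.9 to 132 CPM in the 3, against 7.65 to 30.7 CPM. Myh11, the smooth muscle myosin, was at 291 to 1031 CPM in the 3 and 34.8 to 107 CPM in the other 5. A list of 12 smooth muscle and pericyte markers summed to 2397 to 4396 CPM in the 3, against 1827 to 2356 CPM. Des, in the same list, went the other way, at 910 to 1095 CPM in the 3 and 1309 to 1646 CPM in the other 5. The cardiomyocyte troponin Tnnt2 was lower in the 3, at 3085 to 3760 CPM, than in the other 5, at 4727 to 5832 CPM. The summed level of 8 macrophage markers was 155 to 201 CPM in the 3 and 57.6 to 92.4 CPM in the other 5. A list of 8 cartilage and valve markers summed to 23.0 to 41.6 CPM in the 3 and 7.28 to 10.8 CPM in the other 5. It includes the proteoglycan gene Prg4, at 10.9 to 18.5 CPM in the 3 and 1.71 to 3.19 CPM in the other 5. A list of 4 tendon markers went the other way, at 5.01 to 6.16 CPM in the 3 and 6.67 to 10.7 CPM in the other 5. The part of these cell types in the matrix values was not tested.

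**Figure D1:**
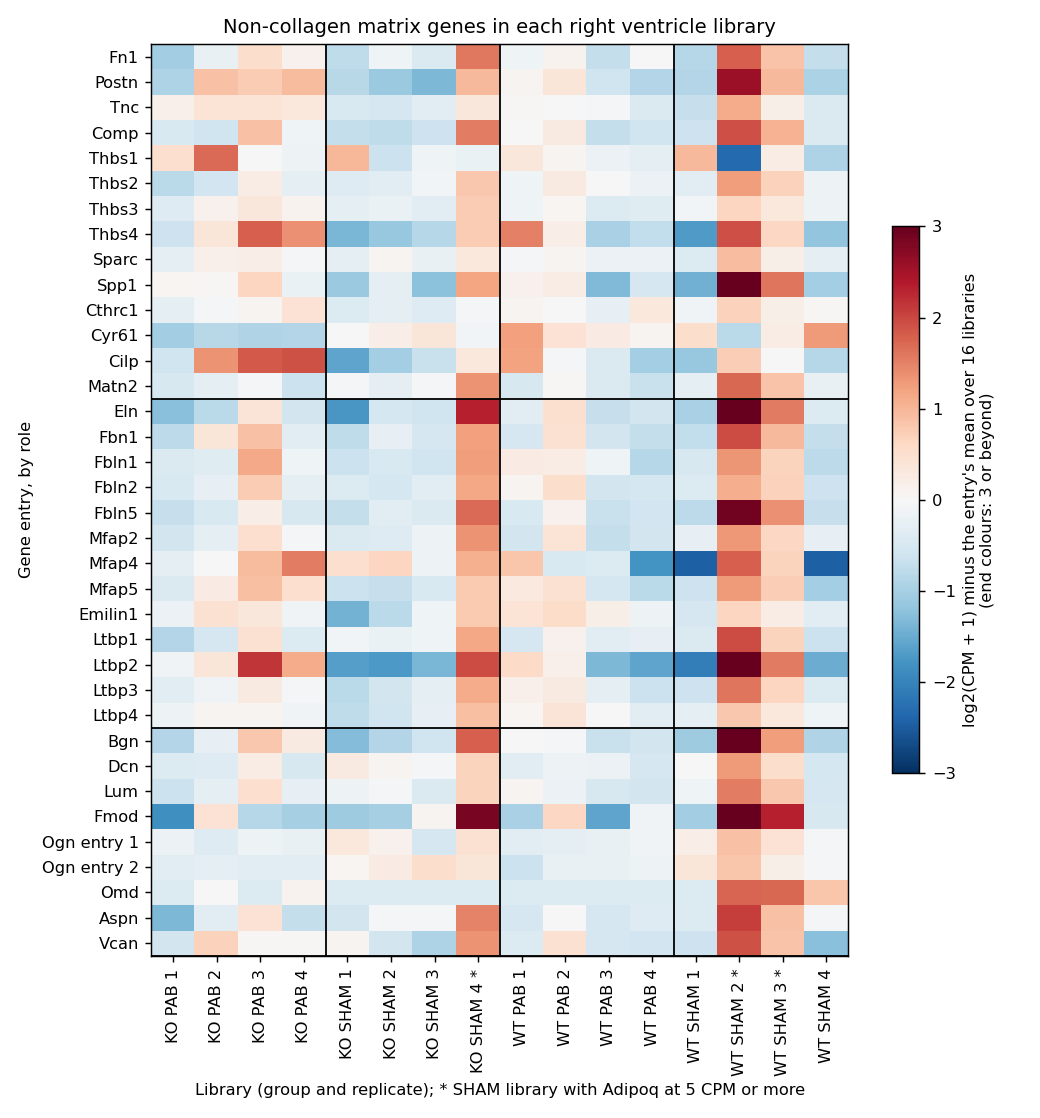
Each row is 1 of 36 gene entries, grouped by role with black lines, and each column 1 of 16 libraries. The colour is log2(CPM + 1) minus the entry's mean over the 16 libraries, from blue (lower) to red (higher); the 3 sham libraries with Adipoq at 5 CPM or more, marked with asterisks, are red in nearly every row, and Cyr61 is blue in all 4 KO PAB libraries.

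Fibroblast markers, as a sum, were also highest in the 3 sham libraries high in Adipoq. The list held 10 genes that are not among the 35, including the collagen genes Col1a1 and Col3a1. Their sum was 1565 to 2461 CPM in KO PAB and 1635 to 1831 CPM in KO SHAM without KO SHAM 4. It was 1500 to 2465 CPM in WT PAB, and 1794 to 1809 CPM in WT SHAM without its 2 libraries high in Adipoq. The 3 libraries left out stood at 2869 to 4116 CPM. Col3a1 alone was at 816 to 1292 CPM in these 3 and at 191 to 419 CPM in the other 5 sham libraries. Pdgfra, in the same list, was at 94.8 to 165 CPM in the 3 and 45.9 to 69.2 CPM in the other 5. For Tcf21 these were 8.75 to 10.8 CPM and 5.76 to 7.97 CPM. KO PAB 3 had the highest value of 23 entries among the KO PAB libraries, and WT PAB 2 the highest of 22 entries among the WT PAB libraries. Both also had the highest fibroblast sum of their group, at 2461 and 2465 CPM. The part of fibroblast number in the matrix values was not tested.

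**Figure D2:**
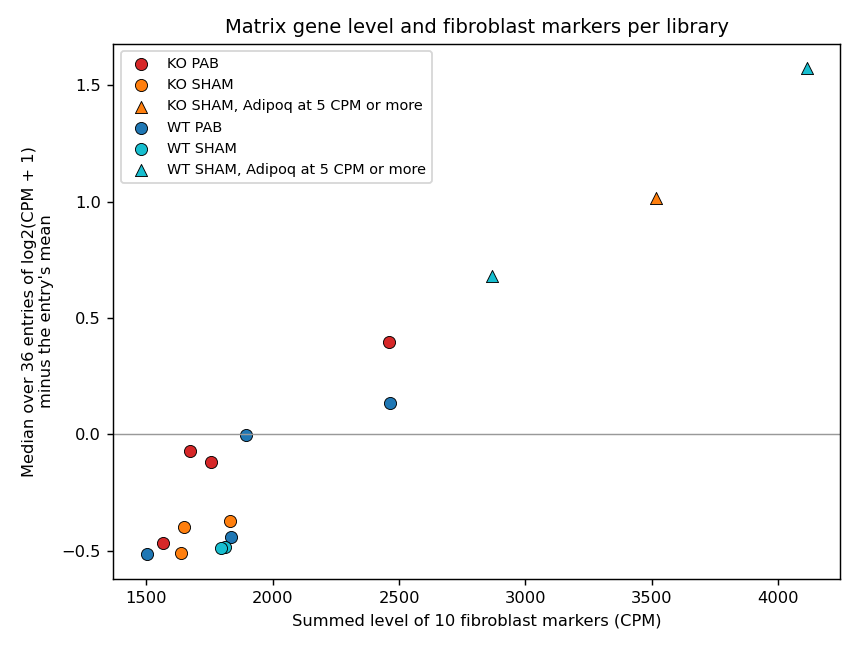
Each point is a library. The horizontal axis is the summed CPM of 10 fibroblast markers, collagen genes among them. The vertical axis is the median over the 36 entries of log2(CPM + 1) minus the entry's mean. Triangles are the 3 sham libraries left out of the second fit, which lie at 0.68 to 1.57 on the vertical axis, above every other library; KO PAB 3 follows at 0.40.

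Averaged over the 2 genotypes and with all 16 libraries, most entries had a negative log2 fold change for banding, but only Ogn passed the test. Of the 36 entries 0 rose and 2 fell, both of Ogn, where 1.85% of all tested entries fell (edgeR quasi-likelihood test, Benjamini-Hochberg adjusted p below 0.05 over all 13458). The median log2 fold change of the 36 was -0.53, with 7 positive and 29 negative values, against a median of -0.02 over all tested entries. An unadjusted p below 0.05 was found for 10 of the 36 and for 22.7% of all tested entries. DESeq2 gave 0 members that rose and 6 that fell, where 4.25% of the entries it tested fell. Of these, 5 were proteoglycan entries and 1 was an adhesive gene. By role the median was -0.26 for the adhesive and matricellular genes, -0.41 for the elastic fibre genes and -0.65 for the 8 proteoglycan entries other than Omd. With Omd left out, since its fitted value rests on libraries at 0 counts, the 35 others had 7 positive and 28 negative values and a median of -0.51.

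Osteoglycin, a small leucine-rich proteoglycan of the pericellular matrix, was the member that fell in both entries. At the second entry it stood at 26.9, 27.8, 26.6 and 27.1 CPM in KO PAB and at 35.0, 40.0, 49.3 and 43.7 CPM in KO SHAM. The WT PAB libraries had 21.3, 28.9, 28.7 and 30.1 CPM, against 43.5, 61.3, 38.4 and 32.2 CPM in WT SHAM. In both genotypes every banded library lay below every sham library, and the 4 KO PAB values spanned little more than 1 CPM. Banded and sham libraries did not overlap, in either direction, for 10.2% of all tested entries in KO and 4.93% in WT. Averaged over genotypes the log2 fold change was -0.66 ± 0.12 (SE, adjusted p = 0.00735). This entry passed under all 24 other settings tried on the 16 libraries, with adjusted p from 2.13e-05 to 0.0342.

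The first Ogn entry averaged 183 ± 13.2 CPM in KO PAB and 236 ± 62.3 CPM in KO SHAM (SD, n = 4 each). It averaged 182 ± 12.9 CPM in WT PAB and 286 ± 78.4 CPM in WT SHAM (SD, n = 4 each). The KO groups overlapped, since KO SHAM 3 had 150 CPM, while the WT groups did not. The log2 fold change over both genotypes was -0.51 ± 0.14 (SE, adjusted p = 0.0436), and under 16 of 24 other settings it no longer passed, with adjusted p from 0.00707 to 0.156 over the 24. The files do not say how the 2 entries differ, and estimated counting can divide reads between entries that share sequence, so the share of each is uncertain.

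Without the 3 sham libraries the same contrast was mostly positive. For 31 of the 36 entries the 3 left out were the highest sham libraries, so leaving them out by itself lowers the sham means. Of the 36 entries 6 rose, where 3.83% of all 13583 tested entries did, and 2 fell, where 3.17% did. The risers were Tnc, Postn, Thbs4, Cilp, Ltbp2 and Mfap4, and the others were Cyr61 and the second Ogn entry. There were 29 positive and 7 negative values, 1 of the 7 being Omd, with a median of 0.49 either with or without it, against 0.01 over all tested entries, and 20 of 36 had an unadjusted p below 0.05, as did 24.8% of all tested entries. KO PAB 3, which was kept, had more Adipoq than any other library of this fit. With it left out as well, 3 of 36 passed, where 3.91% of all tested entries did: Tnc and Ltbp2 rose and the second Ogn entry fell.

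**Figure D3:**
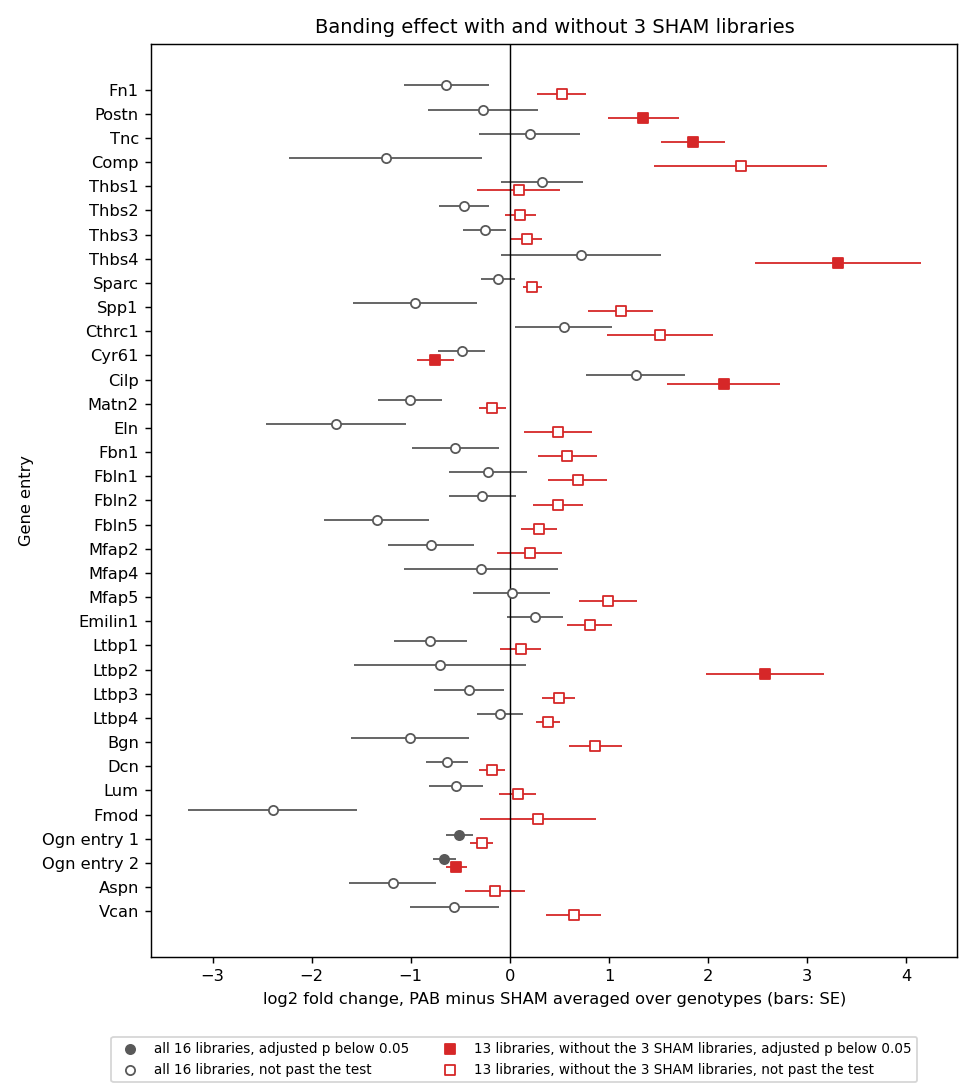
The log2 fold change of PAB over SHAM averaged over genotypes (horizontal axis, bars are SE) is shown for 35 entries with all 16 libraries (grey circles) and with 13 libraries (red squares), filled where the adjusted p is below 0.05. Most entries lie left of 0 with 16 libraries and right of 0 with 13; Omd is not drawn, and Mfap4 is drawn for 16 libraries only because 2 WT SHAM libraries list it at 0.

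These calls rested on few sham libraries, 3 of KO and 2 of WT. Leaving out 1 more library at a time changed the count from 8 to between 0 and 12. It was 0 without WT SHAM 1, where 0 entries of any kind passed, and 2 without WT SHAM 4, WT PAB 2, KO SHAM 1, KO SHAM 2, KO PAB 2 or KO PAB 4. It was 3 without WT PAB 1 or KO PAB 3, 5 without WT PAB 3 or KO SHAM 3, and 12 without WT PAB 4 or KO PAB 1. The share of all tested entries called moved with it, at 1.28% to 3.61% in the fits with 2 members, 4.55% and 3.91% in those with 3, 5.70% and 4.19% in those with 5, and 9.66% and 10.1% in those with 12. Tnc and the second Ogn entry passed in 12 of the 13 fits, missing without WT SHAM 1. Ltbp2 passed in 4 of 13, Thbs4 and Cyr61 in 3, and Postn, Cilp and Mfap4 in 2.

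Tenascin-C (Tnc), a large matricellular glycoprotein that modulates cell adhesion, was the adhesive gene called most often. It was at 0.942, 1.33, 1.32 and 1.17 CPM in KO PAB, from 25 to 36 counts, and at 0.279, 0.230, 0.382 and 1.21 CPM in KO SHAM. WT PAB had 0.807, 0.743, 0.671 and 0.308 CPM, against 0.0922, 2.81, 0.967 and 0.288 CPM in WT SHAM. Apart from the 3 libraries high in Adipoq, no sham library exceeded 0.382 CPM, and the banded libraries other than WT PAB 4 lay at or above 0.671 CPM. The log2 fold change averaged over genotypes was 1.85 ± 0.32 in 13 libraries (SE, adjusted p = 0.0166) and 0.20 ± 0.51 in 16 (SE, adjusted p = 0.855). The counts behind it were small, from 2 in WT SHAM 1 to 96 in WT SHAM 2.

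Periostin (Postn), a matricellular protein of activated fibroblasts, had 5.61, 22.1, 20.3 and 23.4 CPM in KO PAB and 6.11, 4.80, 3.91 and 23.6 CPM in KO SHAM. In WT PAB it had 12.3, 15.1, 7.31 and 5.78 CPM, and in WT SHAM 5.85, 73.2, 23.7 and 5.51 CPM. KO PAB 1 and WT PAB 4 lay within the range of the sham libraries low in Adipoq, and the other 6 banded libraries lay above it. Without the 3 libraries Postn rose, with a log2 difference of 1.34 ± 0.36 (SE, adjusted p = 0.0468), while with them the value was -0.27 ± 0.56 (SE, adjusted p = 0.814).

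Cartilage intermediate layer protein (Cilp), a matrix protein known to bind TGF-beta, was the member with the highest positive value in the 16-library fit. KO PAB libraries had 3.77, 17.3, 24.9 and 26.1 CPM, against 1.40, 2.53, 3.53 and 7.88 CPM in KO SHAM. WT PAB libraries had 15.5, 6.01, 4.31 and 2.54 CPM, against 2.26, 11.1, 6.16 and 2.96 CPM in WT SHAM. The KO groups overlapped only through KO PAB 1 and KO SHAM 4, and the WT groups overlapped broadly. Its log2 fold change averaged over genotypes was 1.27 ± 0.50 in 16 libraries (SE, adjusted p = 0.151) and 2.16 ± 0.57 in 13 (SE, adjusted p = 0.0465).

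Thrombospondin 4 (Thbs4), a pentameric member of the thrombospondin family found in muscle and tendon matrix, spread widely among banded libraries. Levels were 1.32, 3.62, 11.5 and 8.30 CPM in KO PAB and 0.372, 0.614, 0.977 and 5.05 CPM in KO SHAM. In WT PAB they were 9.22, 3.07, 0.830 and 1.16 CPM, and in WT SHAM 0.0922, 12.7, 4.48 and 0.576 CPM. Every banded library exceeded every sham library of its genotype once the 3 high ones were set aside. These 3 were the highest sham libraries for Thbs4, so setting them aside could only favour that separation. Without these 3, groups did not overlap, in either direction, for 22.1% of all tested entries in KO and 17.2% in WT. Thbs4 rose in the 13 libraries, with a log2 difference of 3.31 ± 0.83 (SE, adjusted p = 0.0402), and in all 16 the value was 0.72 ± 0.80 (SE, adjusted p = 0.635).

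**Figure D4:**
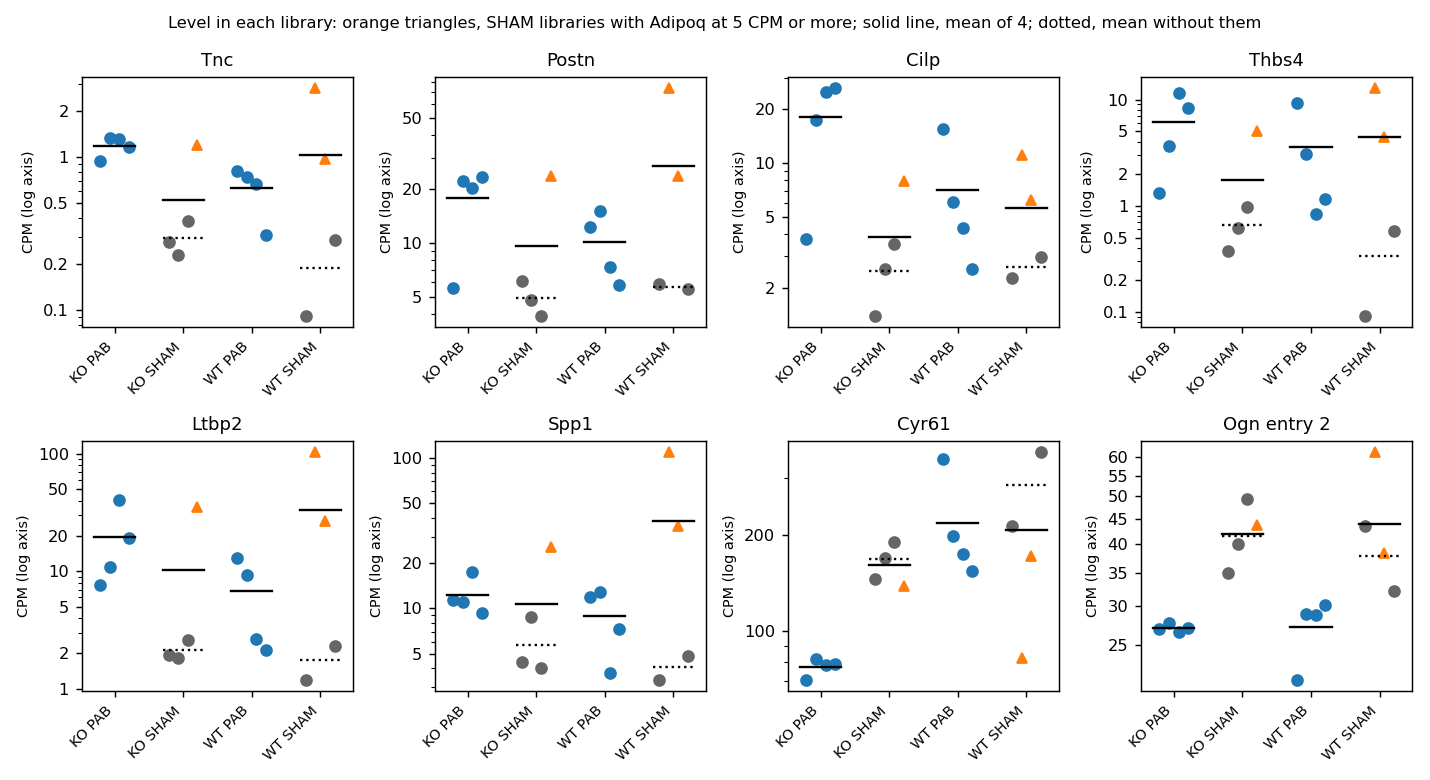
Each panel shows the CPM of 1 gene entry on a log axis in the 4 libraries of KO PAB, KO SHAM, WT PAB and WT SHAM, with the group mean as a solid line. Orange triangles are the 3 sham libraries high in Adipoq and dotted lines are the sham means without them; for Tnc, Postn, Thbs4, Ltbp2 and Spp1 the triangles lie far above the grey sham points, while for Cyr61 they do not.

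Apart from Cyr61, which fell in the 13-library fit, the other thrombospondins and adhesive genes did not pass in either fit. Osteopontin, a secreted phosphoprotein of macrophages and matrix cells, was at 11.4, 11.0, 17.6 and 9.36 CPM in KO PAB and at 4.43, 8.71, 3.99 and 25.8 CPM in KO SHAM. In WT PAB it was at 11.8, 12.9, 3.70 and 7.33 CPM, and in WT SHAM at 3.36, 109, 35.2 and 4.85 CPM. Its log2 fold change averaged over genotypes was -0.95 ± 0.63 with 16 libraries (SE, adjusted p = 0.384) and 1.12 ± 0.33 with 13 (SE, adjusted p = 0.0618). The 8 macrophage markers summed to 72.1 to 193 CPM in KO PAB and 66.3 to 116 CPM in WT PAB, and their part in the Spp1 values was not tested. Fibronectin (Fn1), the main adhesive glycoprotein of provisional matrix, had values of -0.64 ± 0.43 with 16 libraries (adjusted p = 0.399) and 0.52 ± 0.25 with 13 (SE, adjusted p = 0.217). Comp, a pentameric thrombospondin of cartilage, was near the limit of detection at 0.0384 to 0.127 CPM in KO SHAM 1 to 3. In the 13 libraries its log2 difference was 2.33 ± 0.87 (SE, adjusted p = 0.122).

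The remaining 6 adhesive genes had adjusted p-values of 0.0869 or more in 16 libraries and 0.101 or more in 13. Thbs1, the platelet thrombospondin, had 82.2 to 298 CPM in KO PAB, 58.6 to 184 CPM in KO SHAM, 75.3 to 117 CPM in WT PAB and 17.4 to 180 CPM in WT SHAM. It was lowest of all libraries in WT SHAM 2, where most other members were highest. Thbs2 and Thbs3 gave -0.47 and -0.26 in 16 libraries and 0.11 and 0.17 in 13. Sparc, a collagen-binding matricellular protein, gave -0.12 in 16 libraries and 0.23 in 13. Cthrc1, a secreted protein of activated fibroblasts, had 0.0310 to 1.23 CPM over all libraries and gave 0.54 in 16 and 1.52 in 13. Its counts were small, at 1 to 3 in KO SHAM 1 to 3. Matn2, a filament-forming adaptor protein, gave -1.01 in 16 libraries and -0.18 in 13.

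Among the 13 elastic fibre genes 0 passed by edgeR with all 16 libraries, where 5.09% of all tested entries did, and 0 passed by DESeq2. An unadjusted p below 0.05 was found for 3 of these genes and for 22.7% of all tested entries. With 13 libraries 2 rose, Ltbp2 and Mfap4, where 3.83% of all tested entries rose. All 13 log2 fold changes were then positive, with a median of 0.49. Ltbp2 was at 7.68, 10.9, 40.5 and 19.1 CPM in KO PAB, against 1.95, 1.84, 2.59 and 35.0 CPM in KO SHAM. WT PAB libraries had 12.9, 9.30, 2.65 and 2.12 CPM, against 1.20, 103, 26.6 and 2.30 CPM in WT SHAM. KO PAB 3, with its 5.51 CPM of Adipoq, was the highest banded library, and all 4 KO PAB libraries exceeded KO SHAM 1 to 3. For 22.1% of all tested entries KO PAB did not overlap with KO SHAM 1 to 3. The log2 fold change averaged over genotypes was 2.57 ± 0.60 without the 3 sham libraries (SE, adjusted p = 0.0342) and 2.25 ± 0.52 without KO PAB 3 in addition (SE, adjusted p = 0.0459). With all 16 libraries it was -0.70 ± 0.87 (SE, adjusted p = 0.671).

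Mfap4, a microfibril-associated glycoprotein that binds elastin, had 94, 116, 262 and 417 counts in KO PAB and 216, 197, 93 and 380 counts in KO SHAM. It had 229, 93, 97 and 15 counts in WT PAB and 0, 616, 214 and 0 counts in WT SHAM. It passed in the 13-library fit (adjusted p = 0.0471), in which both remaining WT SHAM libraries were at 0. Set against a floor of 3 counts in each of WT SHAM 1 and 4, the WT PAB mean was at least 29.6-fold higher, or at least 17.0-fold higher without WT PAB 1. The WT PAB libraries ran from 0.578 to 8.80 CPM, against a floor of 0.131 CPM. WT SHAM 2 and 3, at 616 and 214 counts, were not part of this bound. In KO the log2 fold change was 0.42 ± 0.71 (SE, adjusted p = 0.763).

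Elastin was at 14.7, 20.3, 47.7 and 24.1 CPM in KO PAB, against 10.1, 24.6, 23.4 and 185 CPM in KO SHAM. In WT PAB it was at 28.6, 50.9, 21.9 and 24.2 CPM, against 17.8, 477, 108 and 26.7 CPM in WT SHAM. KO PAB 3, WT PAB 1 and WT PAB 2 lay above the 5 sham libraries low in Adipoq, and the other 5 banded libraries lay within their range. Eln gave -1.76 ± 0.71 with 16 libraries (SE, adjusted p = 0.158) and 0.49 ± 0.34 with 13 (SE, adjusted p = 0.411). Emilin1, an elastin interface glycoprotein, gave 0.26 ± 0.28 with 16 libraries (adjusted p = 0.634) and 0.81 ± 0.22 with 13 (SE, adjusted p = 0.0527). Mfap2, a small microfibril glycoprotein, gave -0.79 ± 0.43 with 16 libraries and 0.20 ± 0.33 with 13 (SE, adjusted p = 0.294 and 0.749). Ltbp1, the LTBP that carries latent TGF-beta into the matrix, gave -0.80 ± 0.37 with 16 libraries and 0.11 ± 0.20 with 13 (SE, adjusted p = 0.213 and 0.787). The other 7 genes of this role, Fbn1, Fbln1, Fbln2, Fbln5, Mfap5, Ltbp3 and Ltbp4, ran from -1.34 for Fbln5 to 0.02 for Mfap5 with 16 libraries. With 13 they ran from 0.30 for Fbln5 to 0.99 for Mfap5, and the lowest adjusted p was 0.0650, for Mfap5. Fbn1, which encodes the fibrillin of the microfibril core, gave -0.55 ± 0.44 with 16 libraries and 0.58 ± 0.30 with 13 (SE, adjusted p = 0.485 and 0.255).

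The proteoglycans held 4 of the 6 negative values of the 13-library fit. Omd, at 0 counts in most libraries, is left out of these counts. The other 8 entries were all negative with 16 libraries, and 4 were positive and 4 negative with 13, with a median of -0.03, against 0.82 for the adhesive genes and 0.49 for the elastic fibre genes. Whether the roles differ was not tested. Decorin (Dcn), the main collagen-binding proteoglycan of the ventricle wall, was at 406, 409, 630 and 389 CPM in KO PAB and 645, 567, 519 and 863 CPM in KO SHAM. In WT PAB it was at 423, 484, 478 and 381 CPM, and in WT SHAM at 535, 1299, 783 and 372 CPM. Only KO PAB 3 reached into the KO SHAM range, and WT SHAM 4 lay below all WT PAB libraries. Dcn gave -0.63 ± 0.21 with 16 libraries (SE, adjusted p = 0.0954) and -0.18 ± 0.13 with 13 (SE, adjusted p = 0.435). Under 2 of 24 other settings Dcn passed, as lower in banded libraries.

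Biglycan, a close relative of decorin, had a positive value in the 13 libraries that did not pass. It averaged 190 ± 91.3 CPM in KO PAB (SD, n = 4) and 93.2 ± 22.4 CPM in KO SHAM 1 to 3 (SD, n = 3). It averaged 142 ± 33.2 CPM in WT PAB (SD, n = 4) and 88.2 ± 7.23 CPM in WT SHAM 1 and 4 (SD, n = 2). The log2 fold change averaged over genotypes was 0.86 ± 0.26 (SE, adjusted p = 0.0737), against -1.01 ± 0.60 with 16 libraries (SE, adjusted p = 0.330). Fibromodulin (Fmod), a proteoglycan of collagen fibril assembly, had the lowest value of the 35 entries other than Omd, -2.39 ± 0.85 with 16 libraries (SE, adjusted p = 0.116). It was 0.29 ± 0.58 with 13 (SE, adjusted p = 0.802). Under 1 of 24 other settings Fmod passed, as lower in banded libraries. Versican (Vcan), the large hyaluronan-binding proteoglycan, gave -0.56 ± 0.45 and 0.65 ± 0.28 with 16 and 13 libraries (SE, adjusted p = 0.485 and 0.179). Lumican (Lum), a keratan sulfate proteoglycan of collagen fibrils, gave -0.54 with 16 libraries and 0.08 with 13. Asporin (Aspn), a relative of decorin, gave -1.18 and -0.15 on the same 2 sets. Osteomodulin (Omd), a bone keratan sulfate proteoglycan, had 0 counts in 11 of 16 libraries. The others were KO PAB 2 and 4 with 9 and 12 counts and WT SHAM 2, 3 and 4 with 117, 93 and 33 counts, so that no fold change is given.

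RefSeq promoter sequences of the GRCr8 rat assembly were matched for 25 of the 35 genes and for 7 of the 8 genes with a passed test. The deposited counts are on Rnor_6.0, and the coordinates here are those of GRCr8. The 250 bases before the start site are shown, 5′ to 3′ on the gene's strand, for Tnc and Ogn, which passed most often without the 3 libraries, for Postn, and for Cyr61, matched as Ccn1, which had the lowest unadjusted p of the 36 for genotype in banded ventricles. Capitals mark matches on either strand to TATANA (TATA box) or CATTCC (TEAD site), and overlapping matches run together. The regions are chr5:82476132-82476381 on the minus strand for Tnc, chr17:15258996-15259245 on the minus strand for Ogn, chr2:140677811-140678060 on the plus strand for Postn and chr2:237225690-237225939 on the minus strand for Cyr61.
Tnc: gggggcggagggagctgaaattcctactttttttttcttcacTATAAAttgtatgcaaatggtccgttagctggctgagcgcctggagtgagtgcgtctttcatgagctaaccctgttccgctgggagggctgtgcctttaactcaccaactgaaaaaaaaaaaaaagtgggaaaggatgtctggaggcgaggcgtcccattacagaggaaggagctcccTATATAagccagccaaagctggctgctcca
Ogn: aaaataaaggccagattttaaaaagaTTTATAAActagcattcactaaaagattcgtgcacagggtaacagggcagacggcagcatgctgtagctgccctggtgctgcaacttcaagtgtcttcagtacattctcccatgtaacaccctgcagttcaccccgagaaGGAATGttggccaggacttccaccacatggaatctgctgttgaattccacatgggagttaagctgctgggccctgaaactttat
Postn: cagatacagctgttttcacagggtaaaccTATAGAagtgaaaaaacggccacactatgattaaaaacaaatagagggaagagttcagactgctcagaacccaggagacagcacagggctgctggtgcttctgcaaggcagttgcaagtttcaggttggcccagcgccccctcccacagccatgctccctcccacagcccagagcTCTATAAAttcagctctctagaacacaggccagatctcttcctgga
Cyr61: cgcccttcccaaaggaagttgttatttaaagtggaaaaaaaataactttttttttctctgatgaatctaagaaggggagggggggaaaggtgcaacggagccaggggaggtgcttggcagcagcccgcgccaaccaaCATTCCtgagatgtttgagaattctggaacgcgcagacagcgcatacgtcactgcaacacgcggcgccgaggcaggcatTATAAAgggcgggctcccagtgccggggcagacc

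TATANA occurred in the windows of Postn, Tnc, Cyr61 and Ogn among the 7 genes, and in 5 of the 25 windows of member genes, against 24.2% of 33469 rat promoter windows. CATTCC occurred in those of Thbs4, Cyr61 and Ogn and in 5 of the 25, against 12.1% of all windows. An AP-1 site (TGANTCA, 6.34% of all windows), a CArG box (1.5%) and a full estrogen response element (GGTCANNNTGACC, 0.0239%) had no match in any of the 25 windows of member genes. A match is a description of letters and not a binding site. On GRCr8, Ogn, Omd and Aspn, 3 small leucine-rich proteoglycan genes, are neighbours.

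Cysteine-rich angiogenic inducer 61 (Cyr61, also Ccn1) is an immediate early matricellular protein and was the member with the lowest unadjusted p for genotype in banded ventricles. It had 70.8, 82.1, 78.4 and 79.0 CPM in KO PAB, against 145, 170, 189 and 138 CPM in KO SHAM. It had 344, 198, 175 and 154 CPM in WT PAB, against 212, 82.8, 172 and 360 CPM in WT SHAM. All 4 KO PAB libraries lay below every other library, and the WT groups overlapped fully. Of the sham libraries high in Adipoq, WT SHAM 2 and KO SHAM 4 were the lowest of their groups.

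Cyr61 averaged 77.6 ± 4.81 CPM in KO PAB and 218 ± 86.2 CPM in WT PAB (SD, n = 4 each), a log2 difference of -1.49 ± 0.34 (SE). Its unadjusted p was 0.000584 and the edgeR adjusted p 0.999 over all tested entries, so it did not pass. DESeq2 put it past the threshold with an adjusted p of 0.0252. Leaving out 1 library at a time gave log2 fold changes from -1.62 to -1.18, and without the 3 sham libraries, which are in neither group, the adjusted p was 0.314. In banded ventricles 0 of 36 entries passed for genotype, where 0.00743% of all tested entries did. An unadjusted p below 0.05 was found for 1 member and 4.52% of all entries, and DESeq2 called 1 member and 0.0372% of its entries. Groups did not overlap for 2 entries, Tnc higher and Cyr61 lower in KO PAB than in WT PAB, where 3.31% of all entries did not overlap. The median of the 36 was 0.13.

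Banding within KO gave 0 of 36 entries past the test with all libraries, where 0.632% of all tested entries passed. At an unadjusted p below 0.05 there were 4, where 15.6% of all tested entries had one. DESeq2 gave 2 that fell, Cyr61 and the second Ogn entry, where 1.33% of its entries fell. These 2 were also the entries whose KO PAB and KO SHAM libraries did not overlap, a state found for 10.2% of all entries. The median over the members was -0.13. Without KO SHAM 4 and the 2 WT libraries 3 passed, where 2.53% of all tested entries did. Tnc rose by 2.00 ± 0.40 on the log2 scale (SE, adjusted p = 0.0350). Cyr61 fell by 1.11 ± 0.25 (SE, adjusted p = 0.0457), and the second Ogn entry fell by 0.61 ± 0.14 (SE, adjusted p = 0.0457). The median over the members was then 0.47. None of the 3 calls held without any one of KO SHAM 1, 2 or 3 or KO PAB 2, 3 or 4, and 8 of 36 members passed without KO PAB 1, where 6.69% of all tested entries did.

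Banding within WT gave 0 of 36 entries with all libraries, where 0.00743% of all tested entries passed. There were 11 at an unadjusted p below 0.05, 1 of them Omd, where 11.7% of all tested entries had one, and 1 that fell by DESeq2, where 0.156% of its entries did. Both Ogn entries had no overlap between WT PAB and WT SHAM, as did 4.93% of all entries. The median over the members was -0.76. Without WT SHAM 2 and 3 and KO SHAM 4, edgeR again gave 0 of 36, where 0% of all tested entries passed. An unadjusted p below 0.05 was found for 6 members, 1 of them Omd, and for 7.47% of all tested entries. The median was then 0.48. With 2 WT SHAM libraries left, Tnc gave 1.70 ± 0.51 (SE, adjusted p = 0.590) and the second Ogn entry -0.47 ± 0.16 (SE, adjusted p = 0.592).

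Genotype made no called difference among sham libraries. Of 36 entries 0 passed by edgeR, where 0.00743% of all tested entries did. An unadjusted p below 0.05 was found for 2 members, 1 of them Omd, and 2.03% of all entries, and DESeq2 called 0 members and 0.00744% of its entries. The median was -0.50 with all sham libraries, of which KO SHAM has 1 and WT SHAM 2 high in Adipoq, and 0.09 without these. For the interaction (banding in KO less banding in WT), 0 of 36 passed by edgeR, where 0% of all tested entries did. An unadjusted p below 0.05 was found for 3 members, 1 of them Omd, and 1.76% of all entries, and DESeq2 called 0 members and 0% of its entries. Without Omd the interaction was positive for 34 of 35 entries with a median of 0.61 in 16 libraries, and the median was 0.06 in 13. Postn had an interaction of 2.31 ± 1.13 in 16 libraries (SE, adjusted p = 0.999) and 1.01 ± 0.69 in 13 (SE, adjusted p = 1.00).

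Other matrix genes from lists of the same families were read beside the 35. Of 17 tested entries of other matricellular and adhesive genes, 0 rose and 1 fell with banding averaged over genotypes in 16 libraries. Of all tested entries 3.24% rose and 1.85% fell. The 1 was Tgfbi, a secreted integrin-binding protein, at -0.57 ± 0.09 (SE, adjusted p = 0.00455). The medians of this list were -0.28 in 16 libraries and 0.13 in 13. In 13 libraries 2 of 16 rose and 1 fell, where 3.83% of all tested entries rose and 3.17% fell. Ctgf, a relative of Cyr61, rose by 1.92 ± 0.33 (SE, adjusted p = 0.0178). Mfge8, a milk fat globule protein that bridges cells, rose by 0.49 ± 0.10 (SE, adjusted p = 0.0229), and Tgfbi fell by 0.44 ± 0.09 (SE, adjusted p = 0.0207). Cyr61 and Ctgf, both of the CCN family, thus moved in opposite directions in this fit.

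Of 12 other elastic fibre genes, Efemp1, a fibulin, fell by 1.47 ± 0.31 in 16 libraries (SE, adjusted p = 0.0174), where 1.85% of all tested entries fell. In 13 libraries 2 of the 12 rose, where 3.83% of all tested entries did. The 2 were Adamtsl2, a fibrillin-binding protein, by 1.67 ± 0.40 (SE, adjusted p = 0.0355) and Mfap3l by 0.33 ± 0.07 (SE, adjusted p = 0.0262). The medians of the 12 were -0.13 in 16 libraries and 0.22 in 13. Of 8 other proteoglycans and link proteins 0 passed by edgeR in either fit, and 0 by DESeq2 in 16 libraries. An unadjusted p below 0.05 was found for 0 in 16 libraries and 5 in 13, where 22.7% and 24.8% of all tested entries had one. The medians of the 8 were -1.02 in 16 libraries and 0.97 in 13. Of 25 matrix receptors 1 rose in 16 libraries, where 3.24% of all tested entries did. It was the laminin receptor subunit Itga6, by 0.43 ± 0.09 (SE, adjusted p = 0.0180). The medians of the 25 were -0.03 in 16 libraries and 0.14 in 13. Where 3.83% of all tested entries rose in 13 libraries, 4 receptors did. They were the tenascin-C and osteopontin receptor subunit Itga9 by 0.97 ± 0.19 (SE, adjusted p = 0.0209), the collagen receptor Ddr1 by 0.71 ± 0.14 (SE, adjusted p = 0.0223), the hyaluronan receptor Cd44 by 0.45 ± 0.11 (SE, adjusted p = 0.0371) and the common beta subunit Itgb1 by 0.33 ± 0.09 (SE, adjusted p = 0.0477).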

How the data were processed

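Right ventricle RNA of 16 samples was prepared as stranded mRNA libraries, per the labels' protocols. The deposited values are expected counts, 1 whole number per gene symbol and library. Per the submitters' processing notes the authors used STAR 2.5.3a, RSEM 1.3.0 and the Rnor_6.0 build. The annotation, strand setting and rounding are not given in the sources used here. Samples were grouped by title. Of 32754 entries, 13748 were 0 in all libraries and 13458 passed filterByExpr of edgeR 4.0.16 in R 4.3.3 (min.count 10). TMM scaling and a robust quasi-likelihood fit of 4 group means over all libraries gave every comparison. P-values were adjusted by the Benjamini-Hochberg method over all tested entries, with a threshold of 0.05 and no minimum fold. SE is the log2 fold change over the square root of F. Log2 fold changes are PAB minus SHAM or KO minus WT. The second fit left out 3 SHAM libraries with Adipoq at 5 CPM or more of the unscaled total. Alternatives were limma-voom (limma 3.58.1), DESeq2 1.42.0, RLE scaling, no filter, at least 1 CPM in 4 libraries, a replicate block, and leaving out each library. Leaving out KO PAB 3 as well, and each library of the 13-library fit, was added after seeing the data. The code was tested on simulated data. Named members were those past a test in either fit, those with the largest change up or down within a role, and Fn1, Postn, Eln, Dcn and Spp1. The members and lists were chosen with earlier results of these data known. Promoter sequences came from RefSeq GRCr8.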

Additional observations from a re-analysis of the deposited data

Results flagged for a closer look

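Values of single libraries that stood far from the other 3 of their group, by Dixon's gap ratio, were found in 27 of 144 sets of 4 libraries. Chance flags about 1 in 20 such sets, and the sets share libraries, so the flags are not independent. KO SHAM 4 stood high for 20 entries. Its adhesive genes were Fn1 at 204 CPM, Postn at 23.6, Tnc at 1.21, Comp at 4.06, Thbs3 at 8.12, Thbs4 at 5.05 and Matn2 at 40.1 CPM. Its elastic fibre genes were Eln at 185 CPM, Fbn1 at 169, Fbln1 at 105, Fbln2 at 66.0, Fbln5 at 80.4, Mfap2 at 7.44, Mfap5 at 16.9, Ltbp1 at 89.2, Ltbp2 at 35.0 and Ltbp3 at 70.4 CPM. Its proteoglycans were Bgn at 604 CPM, Fmod at 48.4 and Aspn at 19.7 CPM. KO SHAM 4 was 1 of the 3 sham libraries high in Adipoq; WT SHAM has 2 such libraries of 4, so that neither stands alone in its group.

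KO PAB 3, at 5.51 CPM of Adipoq, stood high for Fbln1 at 95.9 CPM, Fbln2 at 50.2 CPM and Dcn at 630 CPM. WT PAB 2 stood high for Fbn1 at 97.9 CPM, Mfap2 at 3.42 CPM and Vcan at 41.8 CPM. WT PAB 1 stood low for the second Ogn entry, at 21.3 CPM.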

How the results depend on the processing

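With all 16 libraries, banding averaged over genotypes gave 2 members past the test, and 6 by DESeq2, 1 by limma-voom and 8 without the 3 sham libraries high in Adipoq. Leaving out 1 library at a time gave 1 to 4. Banding in KO gave 0, and 2 by DESeq2, 3 without the 3 libraries and 0 to 1 with 1 library left out. DESeq2 gave 1 for banding in WT and 1 for genotype in PAB. In the 13-library fit, leaving out 1 library gave 0 to 12 members for averaged banding and 0 to 8 in KO. All-gene counts by edgeR and DESeq2 were 685 and 1337 for averaged banding, 85 and 509 in KO, and 1 and 108 in WT; genotype in PAB gave 1 and 5. They were 951 for averaged banding, 344 in KO and 0 in WT without the 3 libraries. Replicate numbers were not taken as pairs: 6 of 24 same-numbered pairs had a correlation over 0.1 and 2 of 16 libraries matched best with their own number. With a replicate block 1 member passed for averaged banding, and 496 entries in all, against 0 entries for banding in KO.

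The members' median for banding in WT was 0.48 without the 3 libraries and 0.47 without KO PAB 3 too. Averaged over genotypes it was 0.49 and 0.35. The interaction median was -0.18 without the 4 libraries, and 0.029 to 1.31 with 1 library left out. For averaged banding these log2 fold changes turned positive, given first without the 3 and then without the 4 libraries: Fn1 0.52 and 0.39, Postn 1.34 and 1.31, Comp 2.33 and 1.70, Spp1 1.12 and 1.00, Eln 0.49 and 0.26, Mfap2 0.20 and 0.014, Mfap4 5.06 and 5.01 (fitted against zeros, no bound), Ltbp2 2.57 and 2.25, Bgn 0.86 and 0.69, Fmod 0.29 and 0.34, Vcan 0.65 and 0.66. Ltbp1 did so only without the 3, at 0.11. By limma-voom Postn was 0.10, Mfap4 0.95 and Ltbp2 0.30. With 1 library left out Postn spanned -0.44 to 0.34, Comp -1.87 to 0.66, Mfap4 -0.68 to 0.37 and Ltbp2 -1.02 to 0.45. The cause of these shifts was not tested. Scaling by RLE moved the median of all genes by less than 0.1. Counts of a few reads limit Tnc, Comp, Cthrc1, Thbs4 and Omd.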
